A study of Homo sapiens with 12 samples.

Results

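Base excision, nucleotide excision, mismatch repair and end joining were examined through a list of 51 genes, taken from the array annotation by gene symbol and divided into 7 groups by their place in each pathway. A probe set, the group of short probes that reports 1 transcript, was used where the annotation gave it a single gene symbol. By that rule 47 of the 51 genes were measured, through 117 probe sets, out of 19775 genes on the array. All 47 lay above the limit on dim signal, which was a geometric mean signal of 43.3 over all arrays, and 13952 genes in all did so. NEIL1, GTF2H2, PMS2 and NHEJ1 were listed but not measured, because each of their probe sets also carried the symbol of another gene. The study measured total RNA of the line 293T, derived from human embryonic kidney, on 12 arrays, with 4 arrays for each of 3 plasmids delivered with the PEI reagent. The hairpin vector encoded an artificial hairpin of CU1276, which the title of the study calls a tRNA-derived microRNA. The tRNA vector encoded the glycine tRNA chr1.tRNA68-Gly(GCC), from which the mature CU1276 is cleaved, and the empty vector encoded neither. All cells were collected 48 hours after transfection, without any damaging agent in the labels, and that title names the DNA damage response. The plasmids act in a single transformed line, and no probe set used here reports the transfected small RNA, so its level was not checked.

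These pathways mend different lesions. Base excision repair begins with a glycosylase that cuts a damaged base from its sugar, after which APEX1 nicks the backbone and a polymerase and ligase refill the gap. Nucleotide excision repair removes a stretch of DNA around a bulky lesion, opened by the helicases of TFIIH and cut on both sides by ERCC5 and the ERCC1-ERCC4 nuclease. Mismatch repair finds and removes copying errors left by replication, and end joining seals double-strand breaks held by the Ku proteins and PRKDC. 293T cells carry the SV40 large T antigen and divide rapidly, and such cells express most of this machinery.

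Array signals were on the scale that the submitters' processing gave, with medians between 75.9 and 104 per array. The kidney-line markers VIM, NEFM, NEFL, KRT18 and PAX2 passed the limit on dim signal and LHX1 did not, while the blood cell markers PTPRC, CD3E and CD14 were below it. ALB, HBB and PECAM1 passed it with highest signals of 148, 141 and 138, and COL1A1, a collagen gene, passed it at 607 to 1105. The Bacillus control RNAs, which are added during labelling, averaged 1726 to 1834 on the 3 arrays numbered 1, 331 to 389 on those numbered 2 and 20.0 to 26.1 on those numbered 3 or 4. All 3 vectors were equally represented in each of these 3 sets of arrays, so each comparison could also be made within a set. The labels call the arrays biological replicates.

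None of the 47 genes passed the test in any comparison of the vectors. Fold changes were estimated with limma, a linear model that shares the spread between arrays across probe sets, and p-values were adjusted with the Benjamini-Hochberg method over 32768 probe sets. Across the whole array the called share was likewise 0% in each comparison and in the F test of the 3 vectors. The smallest adjusted p among the members was 0.9999 for hairpin against empty vector, 0.99998 for tRNA against empty vector and 0.9997 for hairpin against tRNA vector. Each array measured a whole culture, so a large difference in few cells and a small one in many cannot be told apart.

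With unadjusted p under 0.05, the members numbered 0 for hairpin against empty vector, where 2.74% of all genes qualified. For tRNA against empty vector 1 member qualified, POLM, against 4.26% of all genes. For hairpin against tRNA vector 2 members qualified, APEX1 and POLL, against 4.56% of all genes. In the F test POLL alone had an unadjusted p under 0.05, at 0.00913, beside 3.85% of all genes. In this fit, these counts were near or below the shares over the array.

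A second count asked whether the 4 arrays of a vector lay entirely above or below the 4 of another. This held for 1 member between hairpin and empty vector, APEX1, while 2.33% of all genes did so. Between tRNA and empty vector it held for 1 member, LIG3, against 2.94%. Between hairpin and tRNA vector it held for 5 members, APEX1, LIG3, SMUG1, XRCC4 and POLL, against 3.24%. POLL was higher in hairpin vector cells and the other 4 were lower.

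The list as a whole was evenly divided. Between hairpin and empty vector, means were higher in 25 members and lower in 22, and 51.2% of all genes were higher. For tRNA against empty vector 21 were higher and 26 lower, with 50.7% of all genes higher. For hairpin against tRNA vector 23 were higher and 24 lower, with 50.6% of all genes higher. The median log2 fold changes of the members were 0.013, -0.0056 and -0.018 in these 3 comparisons, in this order as in the paragraphs that follow, and those of all genes were 0.0042, 0.0030 and 0.0028. The median size of the fold change, sign aside, was 0.056, 0.091 and 0.087 for members and 0.099, 0.11 and 0.11 for all genes on the log2 scale.

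The intervals show how large a difference the data allow. The 95% interval of the fold change lay within 1.5-fold either way for 42 of 47 members between hairpin and empty vector, 41 between tRNA and empty vector and 44 between hairpin and tRNA vector. It lay within 2-fold for 47, 47 and 46 members, the exception being POLL between hairpin and tRNA vector. These counts cover only the brightest probe set of each gene. Some other probe sets, among them ones of APTX, PMS1, GTF2H1 and OGG1, had intervals that went past 2-fold. Standard errors of the log2 fold changes ran between 0.067 and 0.40, with a median of 0.13. NEIL2, a glycosylase for oxidised bases, had the widest of them, and its signals were low and scattered, at 140 ± 37.9 in hairpin vector cells, 150 ± 83.4 in tRNA vector cells and 138 ± 39.7 in empty vector cells (SD, n = 4 each).

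**Figure D1:**
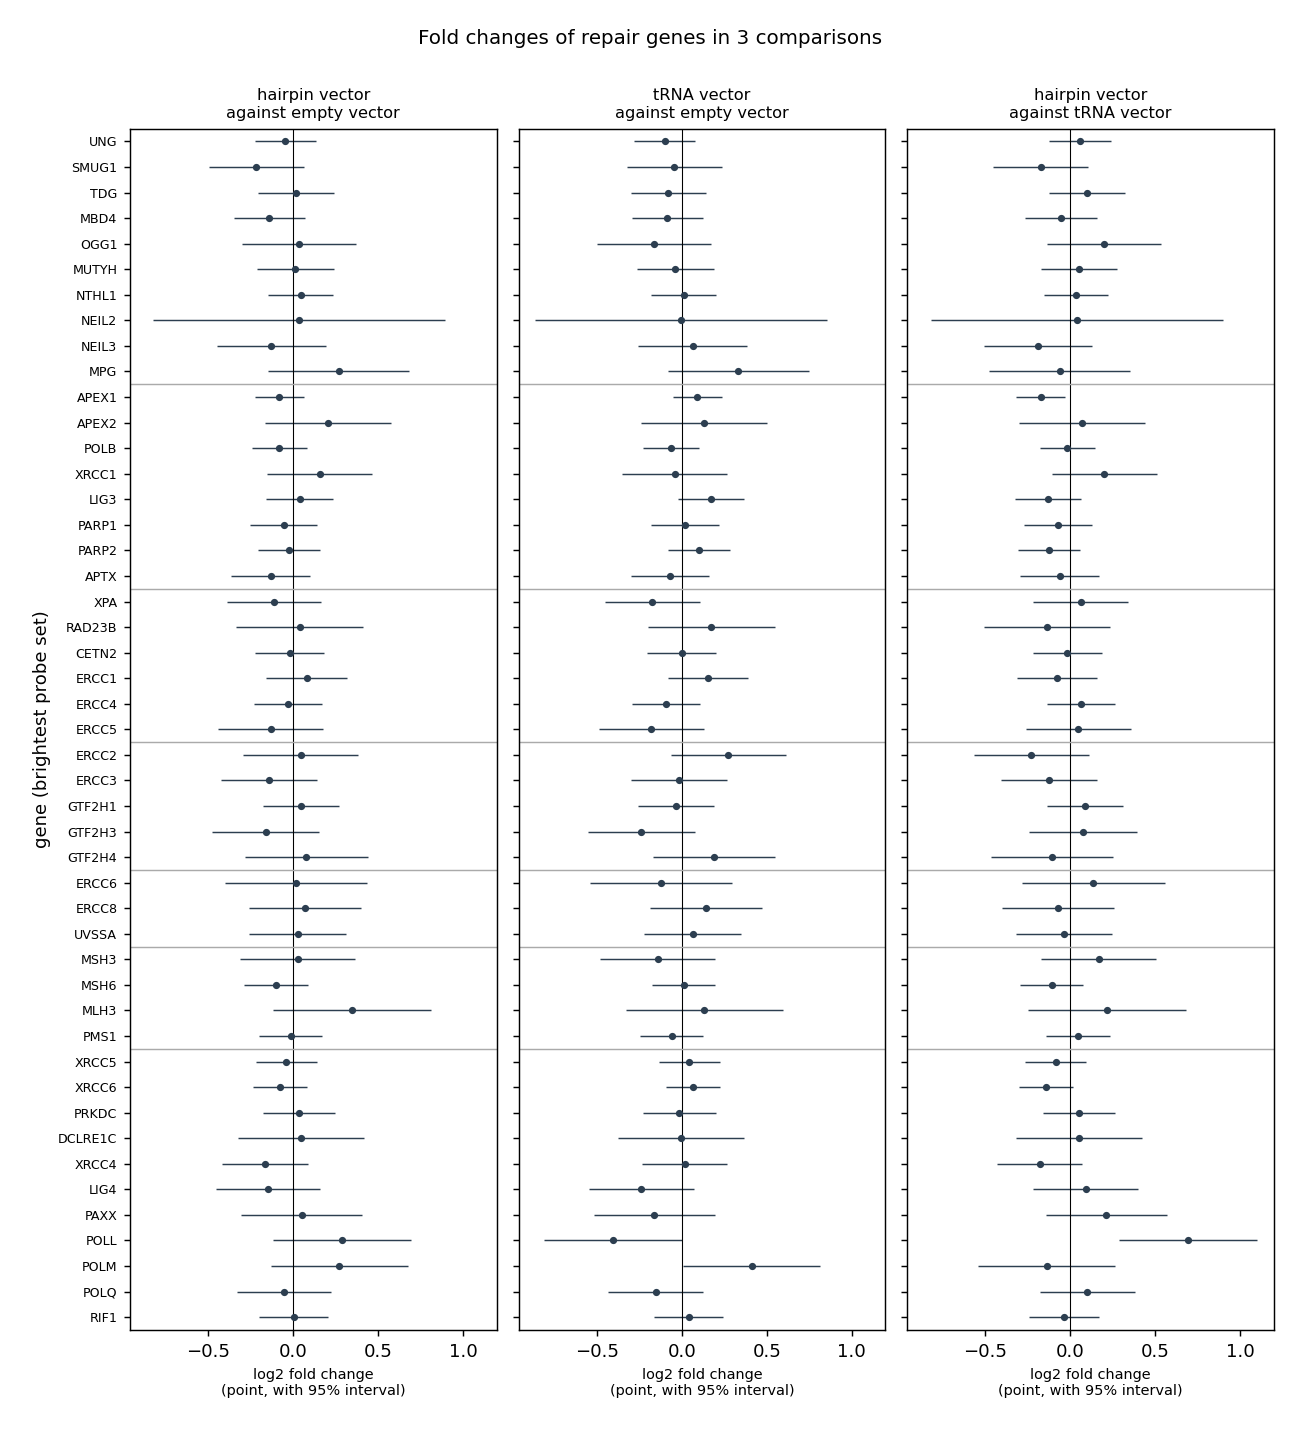
Log2 fold change (horizontal axis) of each of the 47 measured genes (rows, grouped by pathway) in the 3 comparisons (panels); points are limma estimates from 4 arrays per vector and lines their 95% intervals. Most intervals cross 0, and POLL in the right panel, at 0.69, lies farthest from it.

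**Figure D2:**
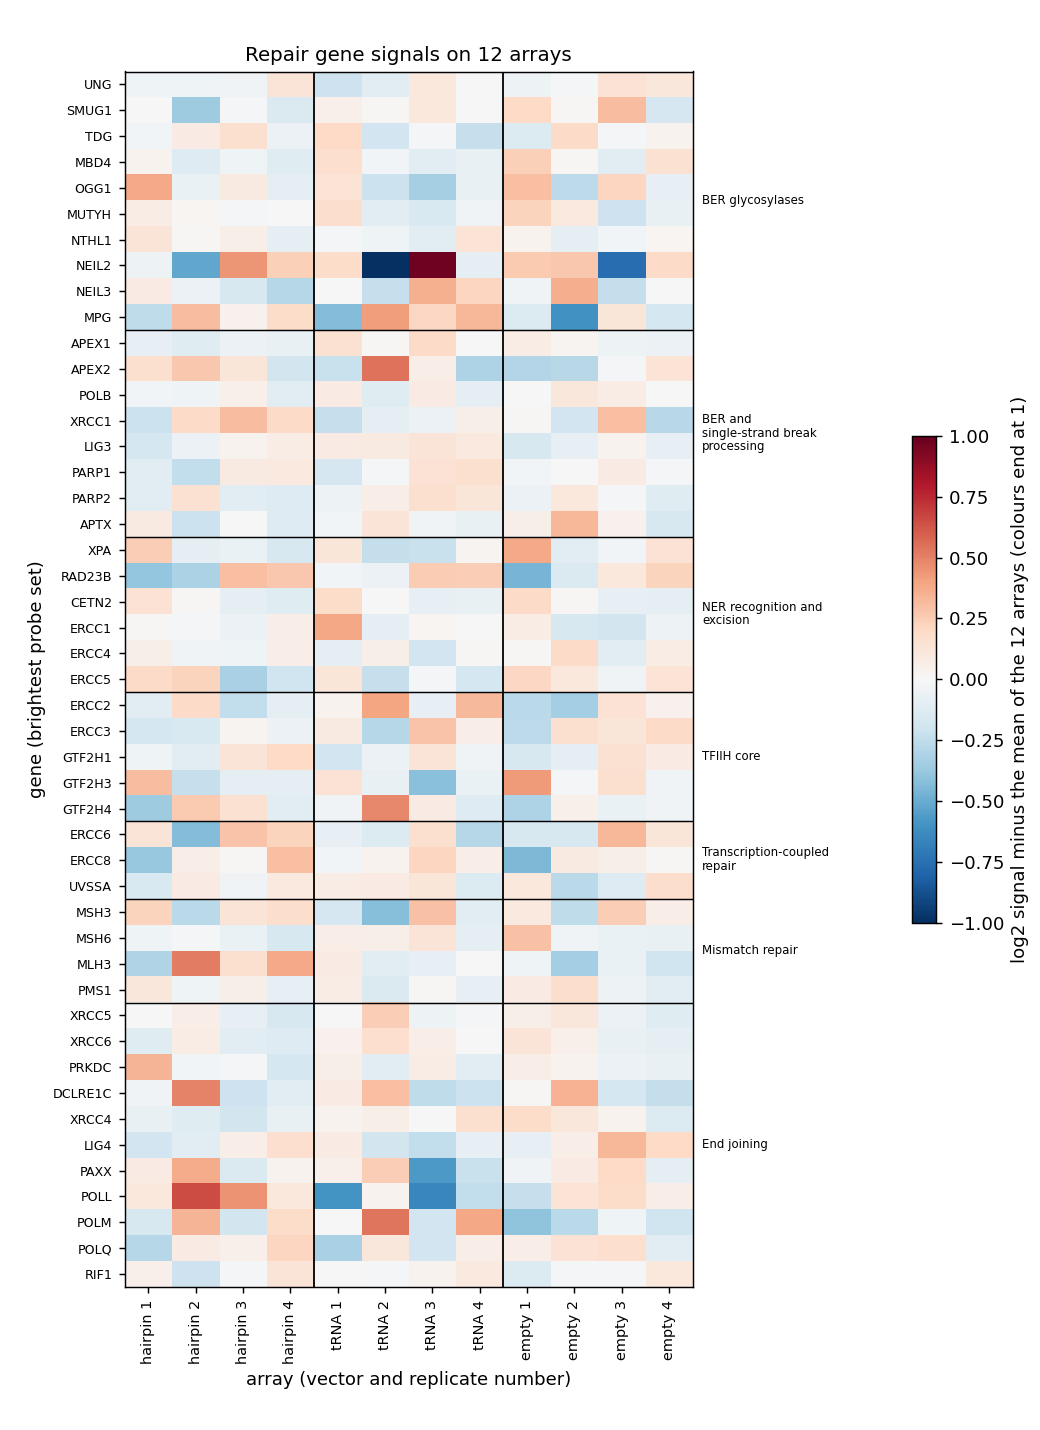
Log2 signal of each measured gene (rows, grouped by pathway) on each of the 12 arrays (columns), as the difference from its mean over all arrays; colours end at 1 in either direction. The columns of 1 vector do not form a shared band across the genes, while rows such as POLL differ between the hairpin and tRNA vectors.

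The DNA glycosylases recognise single damaged bases, and 10 of 11 were measured. Their median log2 fold change was 0.016 for hairpin against empty vector, with 6 higher and 4 lower, -0.040 for tRNA against empty vector, with 3 higher and 7 lower, and 0.036 for hairpin against tRNA vector, with 6 higher and 4 lower. None had an unadjusted p under 0.05. MPG, which removes alkylated purines, had the smallest F test p of the group, 0.225 before adjustment.

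MPG gave signals of 869, 1282, 1065 and 1175 in hairpin vector cells, 769, 1385, 1196 and 1307 in tRNA vector cells, and 944, 682, 1126 and 915 in empty vector cells. The 3 groups overlapped, and the lowest value belonged to an empty vector array. Its log2 fold change was 0.27 ± 0.19 (SE) for hairpin against empty vector and 0.33 ± 0.19 for tRNA against empty vector, with the higher signal in 2 and 3 of the 4 same-numbered pairs. Single arrays moved these values, which ranged over 0.13 to 0.38 and 0.20 to 0.52 with 1 array left out, the lowest of both without empty vector array 2 and the highest without hairpin array 1 and tRNA array 1. Without tRNA array 1 or empty vector array 3 the unadjusted limma p of MPG for tRNA against empty vector was 0.00798 or 0.0496, and its adjusted p stayed above 0.9. SMUG1, a uracil glycosylase that is named because its groups did not overlap, a choice made after its values were seen, had 566, 442, 559 and 514 in hairpin vector cells, against 588, 572, 609 and 568 in tRNA vector cells. All hairpin arrays lay below all tRNA arrays, the nearest being 566 and 568. The empty vector arrays, at 651, 570.5, 702 and 503, overlapped both, and the log2 fold change for hairpin against tRNA vector was -0.17 ± 0.13. The other SMUG1 probe set past the limit had the opposite sign, at 0.19 in that comparison. For hairpin against empty vector it gave 0.24, where the brightest gave -0.22.

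The uracil and mismatched thymine glycosylases UNG, TDG and MBD4 had log2 fold changes between -0.14 and 0.098 in the 3 comparisons. OGG1, which removes oxidised guanine, and MUTYH, which removes the adenine paired with it, had -0.16 and -0.038 for tRNA against empty vector. NTHL1, a glycosylase for oxidised pyrimidines, stayed between 0.011 and 0.044 in all comparisons, and NEIL3, of the same broad class, between -0.19 and 0.065. Each of these differences was less than 2 standard errors. OGG1 had a second probe set, singled out after its values were seen, with signals of 366, 218, 281 and 351 in tRNA vector cells and 204, 151, 241 and 238 in empty vector cells. It gave a log2 fold change of 0.54 ± 0.22 for tRNA against empty vector, opposite in sign to the brightest, higher in 4 of 4 same-numbered pairs with overlapping groups, an unadjusted limma p of 0.0307 and an adjusted p of 0.99998.

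All 8 genes that process the abasic site or the single-strand break were measured. They had a median log2 fold change of -0.040 for hairpin against empty vector, with 3 higher and 5 lower, 0.055 for tRNA against empty vector, with 5 higher and 3 lower, and -0.068 for hairpin against tRNA vector, with 2 higher and 6 lower. APEX1 and LIG3 lay in this group. The 300 bases around the start of each gene are shown because these genes, with POLL and POLM below, carry the values that stand out most between vectors. Capitals mark the motifs CACGTG and GGGCGG and CCAAT on either strand, so that a motif on the opposite strand is printed as its reverse complement. The APEX1 window is chr14:20454976-20455275 on the plus strand and the LIG3 window chr17:34980262-34980561 on the plus strand, both from RefSeq on GRCh38.p14.
APEX1: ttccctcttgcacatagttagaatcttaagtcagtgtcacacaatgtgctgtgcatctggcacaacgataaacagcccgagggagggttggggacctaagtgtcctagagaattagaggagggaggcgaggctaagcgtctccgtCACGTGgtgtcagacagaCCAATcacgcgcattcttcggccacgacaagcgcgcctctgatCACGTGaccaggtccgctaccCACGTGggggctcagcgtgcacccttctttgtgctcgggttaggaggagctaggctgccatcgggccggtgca
LIG3: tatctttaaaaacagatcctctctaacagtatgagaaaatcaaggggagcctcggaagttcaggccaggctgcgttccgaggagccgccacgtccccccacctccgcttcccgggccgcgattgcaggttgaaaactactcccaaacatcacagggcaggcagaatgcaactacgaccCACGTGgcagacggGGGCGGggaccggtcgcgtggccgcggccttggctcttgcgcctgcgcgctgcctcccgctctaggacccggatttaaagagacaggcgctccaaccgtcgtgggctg
The APEX1 window held 3 CACGTG and 1 CCAAT, and the gene starts within 1000 bases of OSGEP, which runs the other way. The LIG3 window held 1 CACGTG and 1 GGGCGG. These matches describe the letters only.

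APEX1, the endonuclease that nicks abasic sites, gave signals of 6417, 6236, 6518 and 6446 in hairpin vector cells, 7530, 6841, 7736 and 6827 in tRNA vector cells, and 7151, 6910, 6548 and 6526 in empty vector cells. All 4 hairpin arrays lay below every array of both other groups, although the highest hairpin signal of 6518 was close to the lowest empty vector signal of 6526. The means were 6404 ± 120 in hairpin vector cells, 7233 ± 469 in tRNA vector cells and 6783 ± 302 in empty vector cells (SD, n = 4 each). Its log2 fold change for hairpin against tRNA vector was -0.17 ± 0.067, a ratio of 0.887, lower in 4 of 4 same-numbered pairs. Limma gave an unadjusted p of 0.0218 and an adjusted p of 0.9997. The exact permutation test over these 8 arrays gave a two-sided p of 0.0286, the smallest that 4 against 4 allows. Groups that do not overlap always give this exact p, so it restates the separation here and in the cases below. Within the 3 sets of arrays with like Bacillus signal the log2 difference was -0.23, -0.13 and -0.17, the last being the mean of the pairs numbered 3 and 4. With the replicate number as a block the adjusted p was 0.473, and over all settings tried the unadjusted p lay between 0.00838 and 0.0740. A single probe set reported APEX1. Against the empty vector the hairpin value was -0.082 ± 0.067, with an unadjusted limma p of 0.243 and the same exact p of 0.0286, and the tRNA value was 0.091 ± 0.067.

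LIG3, the ligase that works with XRCC1, gave signals of 902, 979, 1041 and 1074 in hairpin vector cells, 1079, 1086, 1113 and 1091 in tRNA vector cells, and 913, 964, 1044 and 963 in empty vector cells. The tRNA arrays lay close together and above all arrays of both other groups, which overlapped each other. The log2 fold change for tRNA against empty vector was 0.17 ± 0.091, higher in 4 of 4 same-numbered pairs. Its unadjusted limma p was 0.0803, and the exact permutation p of 0.0286 restates the separation. For hairpin against tRNA vector the log2 fold change was -0.13 ± 0.091, with an unadjusted limma p of 0.169. Averaged over all its probe sets, LIG3 gave a smaller log2 difference of 0.065 for tRNA against empty vector.

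For the remaining genes of this group the arrays of the vectors overlapped in every comparison on the brightest probe sets. POLB, the gap-filling polymerase, had log2 fold changes of -0.081, -0.063 and -0.018 in the 3 comparisons on its brightest probe set. Its other probe set past the limit gave -0.020, -0.48 and 0.46. Averaged over both, POLB was among 6 members with an unadjusted limma p under 0.05 for tRNA against empty vector, against 4.52% of all genes. XRCC1, the scaffold of single-strand break repair, had 0.16, -0.040 and 0.20, each with a standard error of 0.14. PARP1, the main sensor of strand breaks, had -0.056, 0.018 and -0.074. APEX2 and APTX, which removes the adenylate left by failed ligation, stayed between -0.13 and 0.20 on their brightest probe sets. For tRNA against empty vector the other probe set of APEX2 gave -0.31. A dim probe set of APTX, singled out after its values were seen, had signals of 98.8, 25.9, 212 and 119 in tRNA vector cells and 214, 196, 214 and 183 in empty vector cells. The groups overlapped there, and the log2 fold change was -1.17 ± 0.49, lower in 4 of 4 same-numbered pairs, with an unadjusted limma p of 0.0315 and an adjusted p of 0.99998.

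PARP2, a second break sensor, was reported by 3 probe sets. The brightest gave a log2 fold change of -0.12 ± 0.085 for hairpin against tRNA vector, with overlapping groups. On the dimmest the signals were 4129, 3765, 3748 and 3602 in hairpin vector cells, against 4862, 4525, 4754 and 4265 in tRNA vector cells, a log2 fold change of -0.27 ± 0.087 with an unadjusted limma p of 0.00754. On the remaining one they were 4372, 4736, 4296 and 4131 in hairpin vector cells, against 4918, 5178, 4965 and 4979 in tRNA vector cells, a log2 fold change of -0.19 ± 0.075 with an unadjusted limma p of 0.0207. The groups did not overlap on either of these, and the adjusted p was 0.9997 on both. These probe sets were singled out after their values were seen.

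Nucleotide excision repair was represented by 6 recognition and incision genes, all measured, and none had an unadjusted p under 0.05. Their median log2 fold changes were -0.025, -0.047 and 0.014 for hairpin against empty, tRNA against empty and hairpin against tRNA vector. ERCC1, the partner of the ERCC4 nuclease, gave 1260, 1238, 1203 and 1307 in hairpin vector cells, 1637, 1170, 1266 and 1251 in tRNA vector cells, and 1318, 1121, 1104 and 1205 in empty vector cells. A single tRNA array stood above the rest and all groups overlapped. Its log2 fold change was 0.16 ± 0.11 for tRNA against empty vector, higher in 4 of 4 same-numbered pairs, and 0.080 ± 0.11 for hairpin against empty vector. XPA, which verifies the lesion, had -0.11 and -0.17 against the empty vector with the hairpin and tRNA vectors, and ERCC5, the nuclease on the other side of the lesion, had -0.13 and -0.18. ERCC4 had -0.031 and -0.095, and each of these was less than 2 standard errors.

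Of the 6 listed TFIIH core genes 5 were measured, with median log2 fold changes of 0.044, -0.015 and -0.11 in the 3 comparisons. ERCC2, a helicase that opens DNA around the lesion, gave 485, 596, 440 and 490 in hairpin vector cells, 535, 685, 491 and 653 in tRNA vector cells, and 432, 412, 576 and 537 in empty vector cells. The tRNA group held the 2 highest values, yet all groups overlapped. Its log2 fold change was 0.27 ± 0.16 for tRNA against empty vector and -0.23 ± 0.16 for hairpin against tRNA vector, lower in 4 of 4 same-numbered hairpin and tRNA pairs. Averaged over its probe sets, these became -0.20 and 0.049, so the probe sets of ERCC2 did not share a direction. ERCC3, the other helicase, had -0.14, -0.015 and -0.13, and GTF2H3 had -0.16 and -0.24 against the empty vector with the hairpin and tRNA vectors.

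GTF2H1, another core subunit, showed how probe sets of a gene can part. Between hairpin and empty vector its brightest probe set gave a log2 fold change of 0.048 ± 0.10. The second brightest gave -0.29 ± 0.12 without overlap, and the dimmest gave 0.62 ± 0.28. The unadjusted limma p-values of these last probe sets were 0.0230 and 0.0457, and the directions were opposite. They were singled out after their values were seen.

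The 3 genes of transcription-coupled repair, which acts where a polymerase has stalled, had median log2 fold changes of 0.027, 0.064 and -0.037. ERCC8, part of the ubiquitin ligase at the stalled polymerase, gave 592, 806, 777 and 947 in hairpin vector cells, 757, 787, 894 and 806 in tRNA vector cells, and 565, 818, 803 and 777 in empty vector cells. The arrays numbered 1 were the lowest in every group, and the log2 fold changes of 0.072 ± 0.15 and 0.14 ± 0.15 for hairpin and tRNA against empty vector were within their errors. ERCC6, the translocase that acts with it, had 0.016 ± 0.20 and -0.12 ± 0.20, and UVSSA, which helps bring in TFIIH, had 0.027 ± 0.13 and 0.064 ± 0.13.

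In mismatch repair 4 of 5 listed genes were measured, and their median log2 fold changes were 0.0061, -0.024 and 0.11. MLH3, a mismatch repair factor that also acts in meiotic recombination, gave 128, 224, 176 and 204 in hairpin vector cells, 166, 146, 148 and 158 in tRNA vector cells, and 153, 124, 150 and 137 in empty vector cells. All but 1 of the hairpin arrays lay above every array of the other groups and the array numbered 1 lay near the bottom, so the groups overlapped. The log2 fold change for hairpin against empty vector was 0.35 ± 0.22, with an unadjusted limma p of 0.129. Averaged over its 3 probe sets the value was 0.094, with an unadjusted p of 0.604, and the other probe sets gave -0.074 and 0.0083. MSH6 and MSH3, which recognise small and larger mismatches, had -0.10 ± 0.088 and 0.026 ± 0.16 in the same comparison, and PMS1 had -0.014 ± 0.087. On another probe set of PMS1, singled out after its values were seen, the signals were 167, 132, 98.1 and 98.3 in hairpin vector cells and 203, 314, 131 and 183 in empty vector cells. These groups overlapped, and the log2 fold change was -0.71 ± 0.30, lower in 4 of 4 same-numbered pairs, with an unadjusted limma p of 0.0306 and an adjusted p of 0.9999.

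End joining was represented by 12 genes, 11 of them measured, with median log2 fold changes of 0.0034, -0.0056 and 0.049. Its gap-filling polymerases gave the widest values of the list for tRNA against empty vector, and POLL the widest for hairpin against tRNA vector. The start regions of both are shown for that reason, with GGGCGG and CCAAT and CCGGAAG in capitals on either strand. The POLL window is chr10:101588221-101588520 on the minus strand, within 1000 bases of the start of DPCD, and the POLM window chr7:44082481-44082780 on the minus strand, both from RefSeq on GRCh38.p14.
POLL: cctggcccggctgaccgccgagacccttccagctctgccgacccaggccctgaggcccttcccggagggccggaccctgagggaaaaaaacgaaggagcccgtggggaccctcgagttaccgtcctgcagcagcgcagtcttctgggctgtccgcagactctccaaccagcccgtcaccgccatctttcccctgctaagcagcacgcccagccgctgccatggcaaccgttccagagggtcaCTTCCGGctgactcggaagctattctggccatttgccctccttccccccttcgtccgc
POLM: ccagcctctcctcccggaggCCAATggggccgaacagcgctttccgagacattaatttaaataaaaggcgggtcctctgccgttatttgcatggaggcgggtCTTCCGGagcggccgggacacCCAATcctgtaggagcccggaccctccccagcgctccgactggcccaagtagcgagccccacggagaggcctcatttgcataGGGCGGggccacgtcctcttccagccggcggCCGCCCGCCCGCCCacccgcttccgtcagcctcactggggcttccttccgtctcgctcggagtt
The POLL window held 1 CCGGAAG and none of the other motifs searched. The POLM window held 1 CCGGAAG, 2 CCAAT and 4 GGGCGG, some of the last overlapping.

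POLL, DNA polymerase lambda, gave signals of 354, 516, 448 and 353 in hairpin vector cells, 218, 336, 209 and 277 in tRNA vector cells, and 281, 361, 373 and 344 in empty vector cells. The hairpin arrays all lay above the tRNA arrays, and the empty vector arrays overlapped both. The means were 418 ± 79.1 in hairpin vector cells, 260 ± 59.1 in tRNA vector cells and 340 ± 41.0 in empty vector cells (SD, n = 4 each). The log2 fold change for hairpin against tRNA vector was 0.69 ± 0.19, a ratio of 1.61 with a 95% interval on the log2 scale of 0.28 to 1.10. It was higher in 4 of 4 same-numbered pairs, with an unadjusted limma p of 0.00266 and an adjusted p of 0.9997. The exact permutation p of 0.0286 restates the separation of the groups. Within the 3 sets of arrays with like Bacillus signal the difference was 0.70, 0.62 and 0.72, and over all settings tried it stayed between 0.58 and 0.82. The value of 0.72 is the mean of the pairs numbered 3 and 4, which were unlike, at 448 against 209 and 353 against 277. With the replicate number as a block, 6 probe sets of the array passed the adjusted threshold in this comparison, none of a member, and POLL had an adjusted p of 0.206.

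Relative to the empty vector the POLL values had opposite signs, at 0.29 ± 0.19 in hairpin vector cells and -0.40 ± 0.19 in tRNA vector cells. Each sign was shown by 4 of 4 same-numbered pairs, and the unadjusted limma p-values were 0.153 and 0.0522. Both comparisons use the same empty vector arrays. A single probe set reported POLL.

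POLM, DNA polymerase mu, gave 296, 419, 291 and 376 in hairpin vector cells, 332, 478, 290 and 432 in tRNA vector cells, and 251, 275, 321 and 288 in empty vector cells. Every tRNA array but the one numbered 3 lay above all empty vector arrays. The log2 fold change for tRNA against empty vector was 0.41 ± 0.19, higher in 3 of 4 same-numbered pairs, with an unadjusted limma p of 0.0459, an adjusted p of 0.99998 and an exact permutation p of 0.0571. Within the 3 sets of arrays it was 0.41, 0.80 and 0.22, the last being the mean of pair 3, which was lower, and pair 4. The unadjusted limma p of POLM lay between 0.0143 and 0.150 over all settings tried. The hairpin value was 0.27 ± 0.19 against the empty vector and -0.14 ± 0.19 against the tRNA vector. In tRNA against empty vector, POLL and POLM, which belong to the same polymerase family, therefore had opposite signs.

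**Figure D3:**
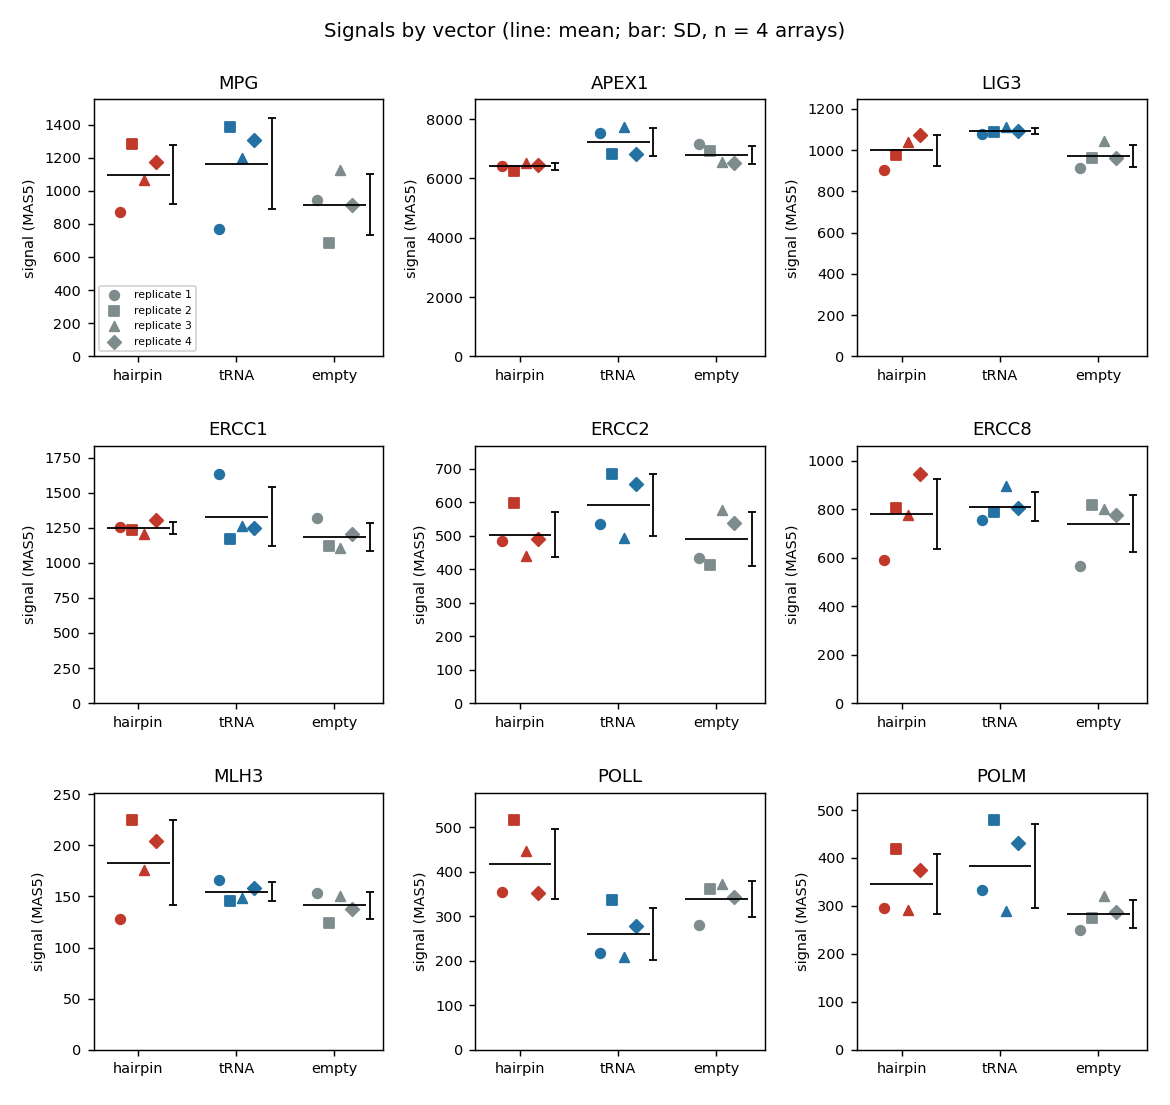
MAS5 signal (vertical axes, starting at 0) of 9 genes on each array by vector; symbols mark replicate numbers, lines the means and bars the SD of 4 arrays. APEX1 hairpin arrays lie below all others, LIG3 tRNA arrays above all others, and POLL hairpin arrays above all tRNA arrays.

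XRCC5 and XRCC6 encode the Ku proteins that first bind a broken end. XRCC6 gave 15629, 17951, 15696 and 15525 in hairpin vector cells, against 17537, 19167, 17852 and 16932 in tRNA vector cells, a log2 fold change of -0.14 ± 0.074. The groups overlapped, while the hairpin array was lower in 4 of 4 same-numbered pairs and the unadjusted limma p was 0.0746. With the replicate number as a block that p was 0.0200, and with the sets of like Bacillus signal as a block 0.0183, with adjusted p-values of 0.558 and 0.547. Under these blocks 9.37% and 9.35% of all genes had an unadjusted p under 0.05, as did 3 members, XRCC6, APEX1 and POLL. Averaged over its probe sets XRCC6 gave 0.074 ± 0.34, a mean taken with a dim probe set whose signals ran from 14.8 to 200. XRCC5 was -0.087 ± 0.084 in that comparison and also lower in 4 of 4 pairs, though pair 1 was nearly equal, at 12856 against 12863. On its second brightest probe set the hairpin array was higher in pair 1, at 9034 against 8918, and lower in the other pairs.

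XRCC4, the scaffold of LIG4, is named because its groups did not overlap, a choice made after its values were seen. It gave 423, 409, 391 and 422 in hairpin vector cells, against 456, 465, 446 and 497 in tRNA vector cells. The log2 fold change was -0.18 ± 0.12, with an unadjusted limma p of 0.146, and the empty vector arrays, at 505, 481, 457 and 405, overlapped both. LIG4, the ligase of end joining, had -0.15 ± 0.14 and -0.24 ± 0.14 with the hairpin and tRNA vectors against the empty vector. PRKDC is the kinase that Ku recruits, DCLRE1C the nuclease it activates, and RIF1 limits the resection of ends. Their brightest probe sets stayed between -0.037 and 0.052 in all comparisons. The 6 other probe sets of RIF1 past the limit ran from -0.77 to 1.42 for tRNA against empty vector. The 4 others of DCLRE1C ran from -0.89 to 0.0094 for hairpin against empty vector. None of these had an unadjusted limma p under 0.05 there. PAXX, a factor that binds Ku, had 0.050, -0.16 and 0.21, each with a standard error of 0.17.

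POLQ, the polymerase of microhomology-mediated joining, was reported by 2 probe sets past the limit. The brightest gave log2 fold changes of -0.054 ± 0.13 and -0.15 ± 0.13 with the hairpin and tRNA vectors against the empty vector. On the other, singled out after its values were seen, the signals were 989, 1053, 1204 and 1113 in hairpin vector cells, 1138, 927, 879 and 1172 in tRNA vector cells, and 1209, 1537, 1273 and 1361 in empty vector cells. All arrays of both CU1276 vectors lay below all empty vector arrays there. The log2 fold changes were -0.30 ± 0.12 and -0.39 ± 0.12, with unadjusted limma p-values of 0.0245 and 0.00546 and adjusted p-values of 0.9999 and 0.99998, and they share the empty vector arrays.

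Probe sets beyond the brightest were present for 28 members, 53 in all. They had the direction of the brightest one in 26 cases, or 49.1%, for hairpin against empty vector, in 31, or 58.5%, for tRNA against empty vector, and in 25, or 47.2%, for hairpin against tRNA vector. A member's sign was thus often not shared by its other probe sets.

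The replicate number separated the signals of most members more than the vector did. Of the variation of the log2 signal over all arrays, the median share lying between vectors was 14.5% for members and 12.9% for all genes, and between replicate numbers 42.4% for members and 39.2% for all genes. The number divides the arrays more finely than the vector, which by itself gives it a larger share. The number had the larger share in 38 members, or 80.9%, against 76.5% of all genes. The spread between arrays of a vector was smaller for members, with a median SD of 0.16 on the log2 scale against 0.23 for all genes.

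**Figure D4:**
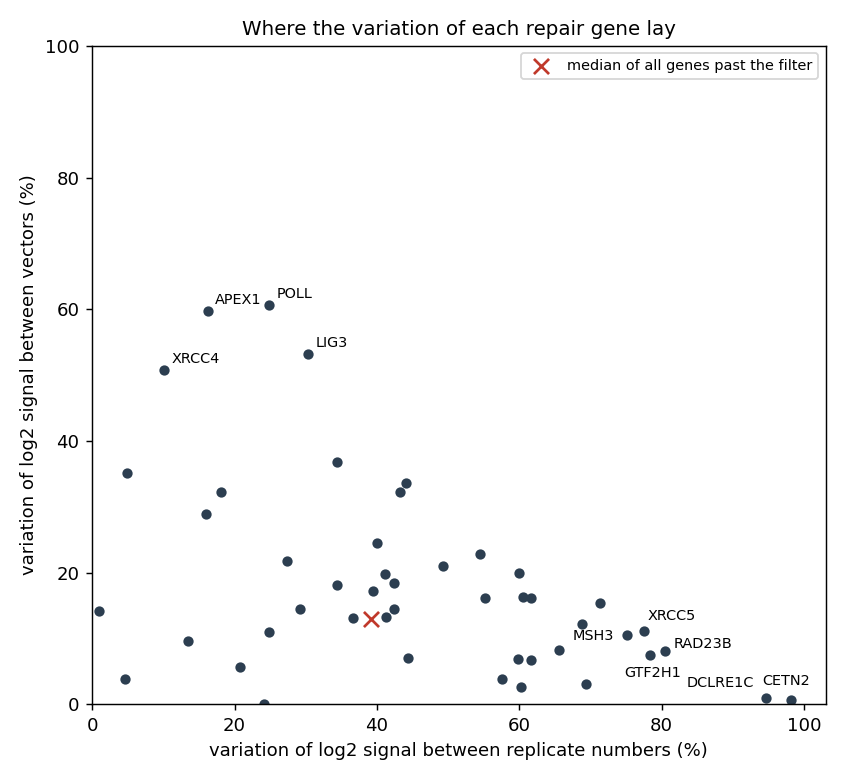
Share of the variation of each measured gene's log2 signal that lay between replicate numbers (horizontal axis, %) and between vectors (vertical axis, %); points are the 47 genes and the cross the median of all genes past the limit on dim signal. POLL, APEX1, LIG3 and XRCC4 lie highest, and CETN2 and DCLRE1C lie at the far right.

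The members at each end of this range were picked from these shares. The vector accounted for 60.6% in POLL, 59.7% in APEX1, 53.1% in LIG3 and 50.7% in XRCC4. The number accounted for 98.1% in CETN2, a centrin that binds the damage sensor XPC, 94.6% in DCLRE1C, 80.4% in RAD23B, which stabilises XPC, 78.4% in GTF2H1 and 77.4% in XRCC5. CETN2 gave 3122, 2855, 2659 and 2603 in hairpin vector cells, 3216, 2824, 2667 and 2686 in tRNA vector cells, and 3233, 2850, 2668 and 2648 in empty vector cells. Its 3 arrays numbered 1 were above all the others, as they were, or below, in 11.3% of all genes. Among the members this held for 2, or 4.26%, CETN2 above and ERCC8 below.

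DCLRE1C gave 1567, 2269, 1393 and 1484 in hairpin vector cells, 1706, 1987, 1353 and 1388 in tRNA vector cells, and 1620, 2047, 1427 and 1366 in empty vector cells, so the arrays numbered 2 were highest in each group. In all, 3 of its 4 other probe sets, among them the second brightest with 2110, 2427 and 1965 on the arrays numbered 2 of hairpin, tRNA and empty vector, were also highest there. RAD23B gave 5405, 5688, 8685 and 8522 in hairpin vector cells, 6925, 6799, 8435 and 8363 in tRNA vector cells, and 5109, 6385, 7614 and 8237 in empty vector cells. The arrays numbered 3 and 4 were the higher ones in all groups, whereas on its second brightest probe set the highest array of each group was the one numbered 1, at 5313, 5439 and 5576 with the hairpin, tRNA and empty vector. The Bacillus control signal differed between the same sets of arrays. The ratio of the GAPDH control probe sets for the 3' and 5' ends of the transcript, a sign of RNA quality, was 1.67, 1.52 and 1.47 on the arrays numbered 1 of hairpin, tRNA and empty vector and 1.18 to 1.39 on the others. The part of either in these values was not tested.

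**Figure D5:**
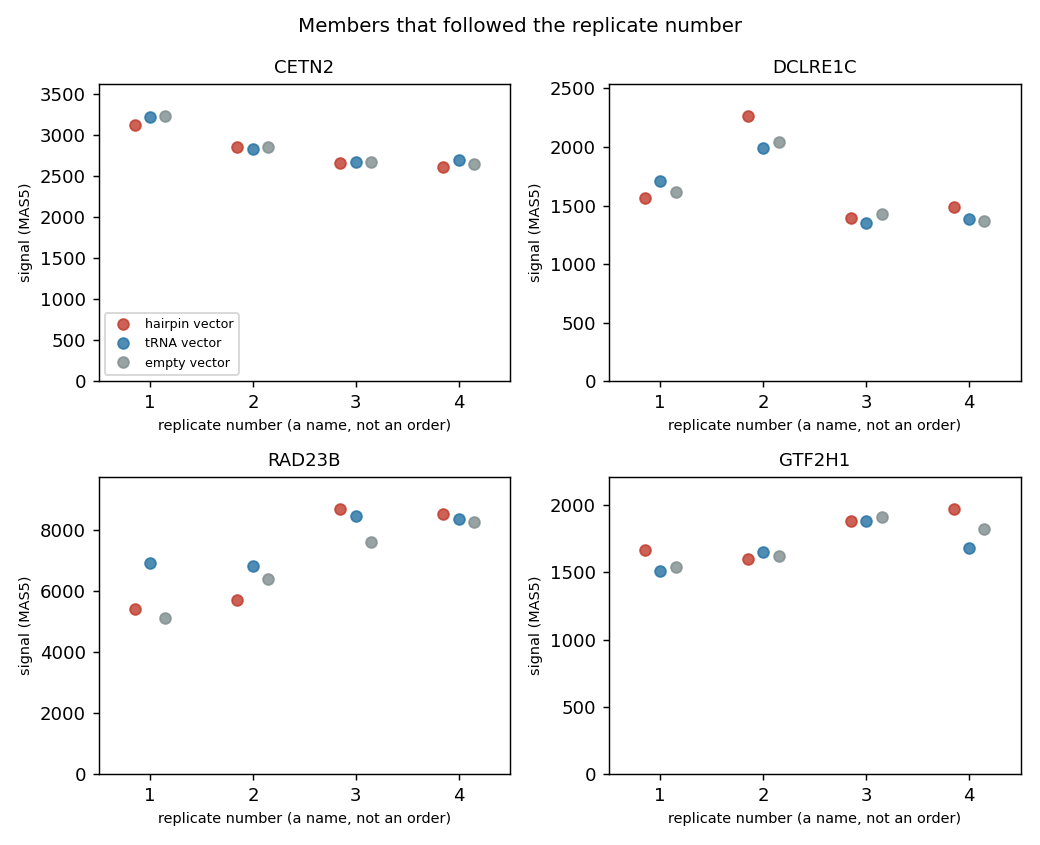
MAS5 signal (vertical axes, starting at 0) of 4 genes by replicate number (horizontal axes), with a point for each vector. The 3 vectors lie close together within a number, most of all for CETN2, and the numbers differ.

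Other genes of these pathways, 36 in a list that includes the RPA complex, the replicative polymerases and further ligases and nucleases, were measured for 34. None was called. Means were higher in 16 and lower in 18 for hairpin against empty vector, 23 and 11 for tRNA against empty vector, and 13 and 21 for hairpin against tRNA vector, with median log2 fold changes of -0.0029, 0.025 and -0.024. Of all genes, 51.2%, 50.7% and 50.6% were higher in these comparisons. None of these genes had an unadjusted p under 0.05 between hairpin and tRNA vector, against 4.56% of all genes. RPA1, the large subunit of the single-stranded DNA binding complex used in excision and mismatch repair, was to be named whatever its values. It alone had an unadjusted p under 0.05 against the empty vector, with both the hairpin and the tRNA vector, where 2.74% and 4.26% of all genes did. It averaged 5032 ± 461 in hairpin vector cells, 5061 ± 335 in tRNA vector cells and 5861 ± 320 in empty vector cells (SD, n = 4 each). Its log2 fold changes against the empty vector were -0.22 ± 0.082 in hairpin vector cells and -0.21 ± 0.082 in tRNA vector cells, with unadjusted limma p-values of 0.0160 and 0.0204. The adjusted p-values were 0.9999 and 0.99998, and the 4 same-numbered pairs were lower in both. The RPA1 groups overlapped between hairpin and empty vector. They did not between tRNA and empty vector, as in 2.94% of all genes.

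The start regions of the members were also compared as sequences. A window of 250 bases before and 50 after the start was listed for 46 of the 51 genes, and 15842 protein-coding genes had one. Median GC content was 64.3% in members and 62.7% in all, with a median of 26 and 22 CpG. Of 7 motifs searched on both strands, GGGCGG was in 78.3% of member windows against 58.5% of all, CCAAT in 52.2% against 36.4%, and CCGGAAG in 34.8% against 14.2%. CACGTG was in 17.4% against 8.88%, GCGGGAA in 17.4% against 8.60%, TGACGTCA in 4.35% against 2.59%, and TATAAA in 2.17% against 9.63%. A gene on the opposite strand started within 1000 bases, head to head, for 14 members, or 30.4%, against 11.3% of all. These shares describe letters and neighbours and were not set against the fold changes.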

How the data were processed

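RNA of 12 cultures of 293T cells was measured on arrays with 54675 probe sets. Biotin-labelled cRNA was made from 12 ug of total RNA, per the labels' protocols. The deposited values are linear intensity signals, made by the authors with MAS5 per the submitters' processing notes. Their 2% trimmed mean was 500.1 on every array. The version and scanner settings are not given in the sources used here, and the number of arrays limits the precision.

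Signals were taken to log2 without an offset. Probe sets with a mean log2 signal at or above the 40th percentile of those that are not controls were tested. Limma 3.58.1 in R 4.3.3 fitted 3 group means with an intensity trend, two-sided, adjusted over all tested probe sets at 0.05. Exact permutation tests used SciPy 1.17.1. Each gene took the brightest of its single-symbol probe sets, named through GEO's platform annotation. Of all probe sets, 41097 had 1 symbol, 1801 had several and 11777 were not listed. Symbols were checked by gene number against RefSeq GRCh38.p14, which changed 0 and lacked 42. Signals of different probe sets were not set against each other.

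Values per array are given for members with an unadjusted p under 0.05, members without overlap against the empty vector and the member with the smallest F test p in each pathway group. Others named for their values are marked in the text. The members, lists and settings were chosen with earlier results of these data known. The code was tested on simulated data. Same-numbered arrays deviated together, with correlations of 0.108 to 0.333 between hairpin and empty vector and 0.113 to 0.356 between hairpin and tRNA vector. Arrays of different numbers gave -0.231 to 0.148 and -0.205 to 0.103, so the ranges overlapped between hairpin and empty vector. In these comparisons the number was taken as a pairing, but the main fit did not use it. It entered the replicate block and the counts of same-numbered pairs. Between tRNA and empty vector same-numbered arrays gave 0.0987 to 0.284, and the lowest did not pass the limit of 0.1. Arrays of different numbers gave -0.1865 to 0.121 there. Alternatives were quantile normalization, no filter, an offset of 16, the mean of a gene's probe sets, no intensity trend, the replicate number or the Bacillus signal set as a block, and leaving out each array. The sequences of CU1276 and of transcript ends were not used here.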

Additional observations from a re-analysis of the deposited data

Results flagged for a closer look

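In 7 of 141 groups of 4 arrays checked among the members, 1 array stood apart from the other 3 by more than Dixon's 95% limit. Chance gives this in about 1 in 20 groups. The hairpin array numbered 2 held 2 of them. PARP2 was at 5275 there, with the other hairpin arrays at 4321 to 4402, and XRCC6 at 17951, with the others at 15525 to 15696. UNG was at 4430 on the hairpin array numbered 4, with the others at 3921 to 3952. The empty vector array numbered 1 held 3. ERCC3 was at 975 there, against 1265 to 1329 on the others, ERCC8 at 565 against 777 to 818, and MSH6 at 8924 against 6936 to 7092. NEIL2, a dim gene, was at 78.5 on the empty vector array numbered 3, with the others at 152 to 161.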

How the results depend on the processing

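No member passed the adjusted threshold in any of the 21 settings of each comparison, and the lowest adjusted p of a member was 0.883 for hairpin against empty vector, 0.566 for tRNA against empty vector and 0.180, POLL, for hairpin against tRNA vector. Of 1135 values under alternatives, 1049 kept their direction and side, moved by less than the spread or, for counts, by less than a set ratio. Some of these could not move. The blocks and the fit without intensity trend leave each log2 fold change as it was. So does leaving out an array of a vector outside the comparison. Over the whole array, the replicate block gave 6 called probe sets for hairpin against tRNA vector and 1 in the F test. The Bacillus signal set as a block gave 3 for hairpin against empty, 4 for tRNA against empty and 8 for hairpin against tRNA vector, and 10 in the F test. Between tRNA and empty vector, where the numbers were not taken as a pairing, members with unadjusted p under 0.05 numbered 6 under the replicate block (9.12% of all genes), 7 under the Bacillus block (8.97%), 6 with the mean of probe sets (4.52%) and 2 after quantile normalization (4.54%), against 1 (4.26%). For 47 members the first of these are 12.8%, 14.9% and 12.8%. Without the intensity trend, 1 member rather than 2 had an unadjusted p under 0.05 for hairpin against tRNA vector (4.26% of all genes). Without the 3 arrays numbered 1, a setting chosen after seeing the data, those with unadjusted p under 0.05 were 2 for hairpin and 3 for tRNA against empty vector (4.01% and 6.73% of all genes), and those without overlap 4, 6 and 8 in the 3 comparisons (10.2%, 12.3% and 12.3% of all genes), with 1 probe set called for hairpin against tRNA vector. That setting also gave member medians of -0.0113 for hairpin against empty and 0.0118 for hairpin against tRNA vector, with ERCC1 at 0.0235 and ERCC8 at 0.0214 in the last. With the mean of probe sets, members without overlap were 2 for tRNA against empty and 3 for hairpin against tRNA vector (2.82% of all genes in each). The medians then were -0.0817 for TFIIH and -0.0306 for all members in hairpin against empty, -0.0111 for break processing in tRNA against empty, and 0.027 for break processing, -0.0279 for mismatch repair, 0.0441 for TFIIH and 0.0394 for all members in hairpin against tRNA vector. The same mean turned ERCC1 to -0.012, ERCC2 to -0.1545, ERCC8 to -0.0198 and LIG3 to -0.0829 in hairpin against empty, ERCC2 to -0.2035 in tRNA against empty and to 0.0489 in hairpin against tRNA vector. Leaving out 1 array, members with unadjusted p under 0.05 ranged over 0 to 1, 0 to 2 and 1 to 4 for hairpin against empty, tRNA against empty and hairpin against tRNA vector, and those without overlap over 1 to 3, 1 to 4 and 5 to 8. Of all genes, 2.47% to 3.63%, 3.75% to 5.69% and 3.57% to 5.78% then had such a p, and 2.33% to 6.01%, 2.94% to 7.63% and 3.24% to 7.68% did not overlap. The count of 1 in the first came without empty vector array 4 or hairpin array 1, the 0 in the second without empty vector array 2 or 4, tRNA array 4 or hairpin array 4, and in the third the 1 came without tRNA array 1 or 3 and the 4 without hairpin array 2. Member medians ranged over -0.0179 to 0.0135, -0.0338 to 0.0049 and -0.0254 to 0.0128. Break processing ranged over 0.0027 to 0.0785 for tRNA against empty and -0.1047 to -0.0123 for hairpin against tRNA vector, where end joining ranged over -0.0551 to 0.0622 and TFIIH over -0.1642 to 0.0193. ERCC2 ranged over -0.0407 to 0.1279 and ERCC8 over -0.0533 to 0.198 for hairpin against empty, and ERCC1 over -0.1349 to 0.0269, ERCC8 over -0.1717 to 0.0538 and MPG over -0.2514 to 0.0439 for hairpin against tRNA vector. The cause was not tested.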

Other observations

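Probe sets shared with another gene reported 4 listed genes that were otherwise not measured. The set of NEIL1, a glycosylase, which also carries MIR631, averaged 283 ± 68.1 in hairpin vector cells, 281 ± 33.0 in tRNA vector cells and 313 ± 8.97 in empty vector cells (SD, n = 4 each). The brighter set of PMS2 and PMS2CL, the first a mismatch repair endonuclease, averaged 1012 ± 49.98 in hairpin vector cells, 898 ± 85.9 in tRNA vector cells and 1002 ± 123 in empty vector cells. NHEJ1, an end-joining scaffold, shared with SLC23A3, averaged 501 ± 108 in hairpin vector cells, 499.9 ± 46.0 in tRNA vector cells and 562 ± 93.1 in empty vector cells. One set of GTF2H2 and its copies gave 2522, 2262, 2424 and 2513 in hairpin vector cells, 2165, 2125, 2382 and 2364 in tRNA vector cells, and 2385, 2357, 3242 and 2794 in empty vector cells, with overlapping groups. Its mean was highest in empty vector cells, and those of the other GTF2H2 sets in hairpin vector cells. Another set averaged 1287 in hairpin vector cells, 1177 in tRNA vector cells and 1215 in empty vector cells, and the last 2306, 2195 and 2229. These probe sets cannot say which of their genes they report.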
